A study of Mus musculus with 6 samples.

Results

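Of the 57662 CTCF-bound regions that the study joined from its peak lists, 440 lay at the promoters of non-coding RNA genes. A region was taken when it was on chromosomes 1 to 19 or X, overlapped the 1000 bp on either side of a transcript start of a gene annotated as lincRNA or processed transcript, and lay more than 1000 bp from every start of a protein-coding gene. The GENCODE vM1 annotation of mouse build mm9 was used, in which 0 genes carry the type antisense, the third type allowed. The regions came from ChIP-seq, in which chromatin fragments bound by CTCF are pulled down with an antibody and sequenced, in mouse embryonic stem cells (mESCs), pluripotent cells of the early embryo, with 2 libraries of WT_CTCF and 2 of MUT_CTCF cells. Both genotypes were CTCF-mAID mESCs, in which the tagged endogenous CTCF is degraded when auxin is given. Both received auxin and an introduced CTCF, which was wild type in WT_CTCF cells and carried alanine in place of the threonine T668, a residue modified by the sugar O-GlcNAc, in MUT_CTCF cells. Both were clones picked for an amount of introduced CTCF close to the endogenous level, so genotype and clone cannot be told apart here. The 2 input libraries were not analysed here. A peak list shows neither the exchanged residue nor the markers of the cell type, so these labels were not checked.

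CTCF binds a long DNA motif with its zinc fingers and holds chromatin loops together with cohesin. Many of its sites lie at promoters, where it can sit close to the start of transcription and separate neighbouring regulatory elements. Long non-coding RNAs are transcribed from their own promoters and often start on the strand opposite to a protein-coding gene, and several of those studied most closely, such as Xist, Firre and Meg3, lie in domains whose folding involves CTCF.

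The sequence under the regions was examined first. Both strands of the mm9 reference were scanned for the 13-base CTCF core motif with at most 1 mismatch. It was found in 230 of the 440 regions, a share of 52.3% with a 95% Wilson interval of 47.6% to 56.9%, and in 57 of them it was exact. In intervals of the same width shifted by 5000 bp to either side the share was 5.91%. The motif stood in 60.7% of the other 57204 regions on these chromosomes, in 47.9% of the 5576 regions within 1000 bp of a protein-coding start, and in 62.0% of the 50849 regions farther than that from the start of any gene. The middle of the motif lay a median of 9.62 bp from the summit, the point of highest signal in a peak. Where a motif was present it read along the strand of the RNA in 121 regions and along the opposite strand in 109.

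The windows below show the motif in capitals with 24 reference bases on either side in lower case, each written along the strand on which the motif reads forward. The first set comes from regions with the highest scores, in which the motif may be exact or not. Gm15517, also among the highest, held no motif and is not shown.
2610005L07Rik (chr8:20020423-20020483, minus strand): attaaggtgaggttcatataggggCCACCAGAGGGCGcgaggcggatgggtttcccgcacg
4930509E16Rik (chr9:72378187-72378247, plus strand): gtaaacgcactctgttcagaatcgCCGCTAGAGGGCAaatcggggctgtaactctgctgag

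The second set comes from the regions whose score differed most between the genotypes, given further on.
BC024582 (chr4:32659252-32659312, minus strand): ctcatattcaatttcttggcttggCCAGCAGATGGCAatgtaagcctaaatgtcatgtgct
1190007F08Rik (chr4:153400233-153400293, plus strand): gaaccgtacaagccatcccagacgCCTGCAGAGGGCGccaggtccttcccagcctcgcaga
Gm17585 (chr4:155144500-155144560, minus strand): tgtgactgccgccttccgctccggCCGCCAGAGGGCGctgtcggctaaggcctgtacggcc

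The third set comes from regions whose score differed least among those that passed the test. Another such region, at Gm11616, held no motif and is not shown. 
Gm12052 (chr11:22517745-22517805, minus strand): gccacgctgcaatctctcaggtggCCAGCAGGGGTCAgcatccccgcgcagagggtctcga
5730588L14Rik, next to Snhg7 (chr2:26495821-26495881, minus strand): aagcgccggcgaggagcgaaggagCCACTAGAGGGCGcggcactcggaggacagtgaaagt

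The fourth set shows regions at well-known RNA genes, among them Tbx3os2, which is Gm16065 in the annotation, and last a region with a peak in WT_CTCF only, at Gm16899.
Xist (chrX:100679547-100679607, plus strand): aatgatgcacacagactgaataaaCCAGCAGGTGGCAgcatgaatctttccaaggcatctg
Meg3 (chr12:110781225-110781285, minus strand): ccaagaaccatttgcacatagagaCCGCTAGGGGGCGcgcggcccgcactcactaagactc
Mir17hg (chr14:115441423-115441483, minus strand): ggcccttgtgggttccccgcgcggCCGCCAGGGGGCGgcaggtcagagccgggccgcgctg
Snhg7 (chr2:26494758-26494818, minus strand): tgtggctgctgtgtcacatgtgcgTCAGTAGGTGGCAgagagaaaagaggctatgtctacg
Tbx3os2 (chr5:120141308-120141368, minus strand): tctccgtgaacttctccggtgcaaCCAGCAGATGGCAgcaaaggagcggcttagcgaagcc
Gm16899 (chr1:7388442-7388502, plus strand): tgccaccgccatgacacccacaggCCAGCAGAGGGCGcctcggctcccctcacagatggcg

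The fifth set shows 3 windows that resemble each other beyond the motif, at Snhg15 (Gm11974 in the annotation), Snhg12 and Platr4 (C430002E04Rik).
Snhg15 (chr11:6426818-6426878, minus strand): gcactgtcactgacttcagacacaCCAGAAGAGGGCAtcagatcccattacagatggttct
Snhg12 (chr4:131863928-131863988, minus strand): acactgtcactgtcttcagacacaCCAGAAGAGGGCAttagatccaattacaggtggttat
Platr4 (chr3:41296395-41296455, plus strand): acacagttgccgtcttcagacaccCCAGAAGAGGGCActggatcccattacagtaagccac

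These 3 windows share the string CTTCAGACACNCCAGAAGAGGGCA, in which N stands for any base. It belongs to the B2 family of short interspersed repeats, which is known to have spread copies of a CTCF motif through the mouse genome. Searched on both strands, and chosen after the windows had been seen, the string occurred in 11 of the 440 regions (2.50%) and in 2.21% of the other regions. Those 11 regions overlap the motif count above, since the string ends in the motif.

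Each library has its own list of peaks, and a region counts as called in a library when a peak of that list overlaps it. WT_CTCF replicate 1 had a peak in 373 of the 440 regions (84.8%) and WT_CTCF replicate 2 in 415 (94.3%). MUT_CTCF replicate 1 had a peak in 267 (60.7%), and so did MUT_CTCF replicate 2. The mean was 394 ± 29.7 (SD, n = 2) in WT_CTCF and 267 ± 0 in MUT_CTCF, so the groups did not overlap. With 2 libraries a group the exact two-sided permutation test gave p = 0.333, the smallest p this design allows. The depth of the libraries is not given in the sources used here, and the replicates were described as biological.

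**Figure D1:**
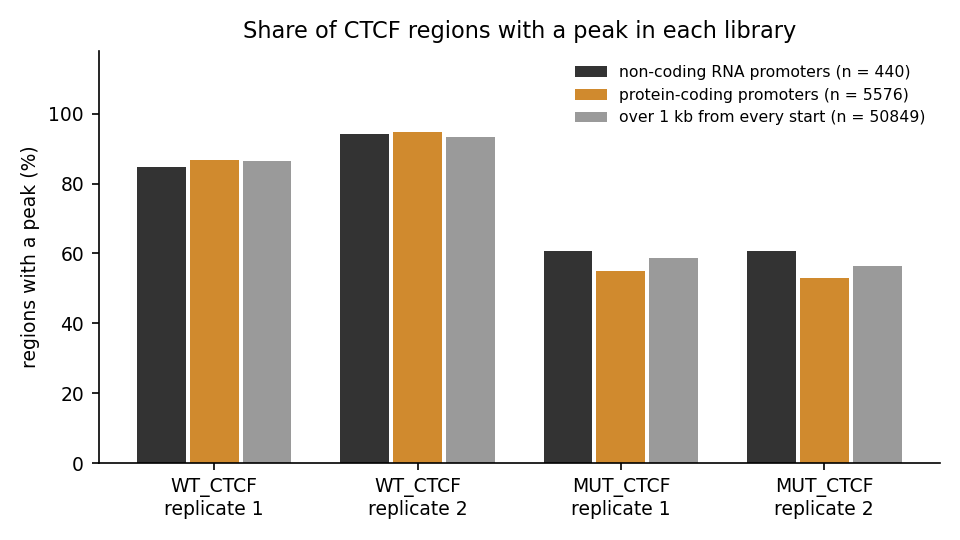
Percent of regions with a peak (y axis, from 0) in each of the 4 libraries (x axis), for the 440 regions at non-coding RNA promoters, the 5576 at protein-coding promoters and the 50849 away from all starts. The share at non-coding RNA promoters goes from 84.8% and 94.3% in WT_CTCF to 60.7% in both MUT_CTCF libraries.

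A lower share of calls in MUT_CTCF was also seen elsewhere in the genome. Among the other regions the WT_CTCF libraries called 86.3% and 93.4%, and the MUT_CTCF libraries 58.2% and 56.1%. The share at non-coding RNA promoters dropped by 28.9 percentage points, that at protein-coding promoters by 36.6 and that of regions away from starts by 32.3. The drop at non-coding RNA promoters was smaller than in all other regions by 3.84 percentage points and smaller than at protein-coding promoters by 7.77. Both differences had p = 0.333 in the exact permutation test of 2 libraries against 2, which cannot separate them from the spread between libraries.

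By library, 252 regions (57.3%) were called in all 4 libraries, against 52.6% of all regions in the study. Another 71 (16.1%) had a peak in the 2 WT_CTCF libraries and none in MUT_CTCF, against 19.5% of all regions. Called in WT_CTCF replicate 2 alone were 65 regions (14.8%, against 12.8% of all regions). Called in WT_CTCF replicate 1 alone were 22 (5%, against 5.98%). A further 13 regions (2.95%, against 4.88%) had a peak in both WT_CTCF libraries and MUT_CTCF replicate 1. Another 13 (2.95%, against 3.08%) had one in both WT_CTCF libraries and MUT_CTCF replicate 2. The last 4 (0.91%, against 1.16%) had other patterns. The reverse pattern, both MUT_CTCF and neither WT_CTCF library, was found in 0 of the 440 and in 0.033% of all regions. The region closest to it, at Gm11616 and named after its values were seen, was called in MUT_CTCF replicate 2 alone with a score of 22.

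Each peak carries a score given by the peak caller MACS2. The score is not a read count. It comes from coverage scaled by the spike-in, and which statistic it is, which cutoff was set and whether the input entered it are not given in the sources used here. The study also compared scaled read counts over these regions, which is another quantity and was not used. From that comparison and from blots of chromatin fractions, the paper reports more CTCF bound to chromatin in MUT_CTCF cells. A score as used here says how a peak stood in its own list, and a lower score is not a measure of less CTCF bound. In bulk chromatin, fewer cells with CTCF at a site and less CTCF per site cannot be told apart either.

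Over the 252 regions called in all 4 libraries, the median score was 761 in WT_CTCF replicate 1 and 843.5 in WT_CTCF replicate 2, and 360 and 330 in the MUT_CTCF libraries. The scores reached from 54 to 9558 and from 66 to 9281 in WT_CTCF, and from 44 to 6662 and from 22 to 6780 in MUT_CTCF. The medians of the groups did not overlap, while single regions covered a wide and shared range. On the log2 scale the median was 9.65 ± 0.10 (SD, n = 2) in WT_CTCF and 8.43 ± 0.09 in MUT_CTCF, a difference of -1.22 (exact permutation test, p = 0.333).

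The other regions differed by almost the same amount. Their median score was 594.5 in WT_CTCF and 256.5 in MUT_CTCF, a difference of -1.21 on the log2 scale. Scores at non-coding RNA promoters were higher than elsewhere in every library, by 0.42, 0.44, 0.45 and 0.40 on the log2 scale, a mean of 0.43 over the 4 libraries (exact two-sided sign-flip permutation test, p = 0.125, the smallest that 4 libraries allow). Protein-coding promoters stood above the other regions too, with median scores of 700.5 and 759 in WT_CTCF and 290 and 276 in MUT_CTCF, against 569 and 620 and then 263 and 250. The gap of the non-coding to the protein-coding promoters was 0.14 in WT_CTCF and 0.28 in MUT_CTCF. The gap of the non-coding RNA promoters to all other regions differed between the genotypes by less than 0.01 in size (-0.0050, exact permutation test, p = 1). Against protein-coding promoters the genotype difference in median log2 score was 0.15 smaller at non-coding RNA promoters (exact permutation test, p = 0.333).

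To look at single regions, limma was fitted to the log2 scores of all 30317 regions called in all 4 libraries, with p-values adjusted over all of them. The score was lower in MUT_CTCF with an adjusted p below 0.05 in 231 of the 252 regions (91.7%), and so it was in 90.8% of all regions tested. It was higher in 0 of the 252, with 0 also at an unadjusted p below 0.05 and 0 without limma's trend on the mean score. In all regions tested the share higher was 0.0396%. Both MUT_CTCF scores were below both WT_CTCF scores in 244 of the 252, against 96.2% of all regions tested, and above both in 0, against 0.221%. The count fell strongly when a WT_CTCF library was left out, and so did that over all regions tested. The number of regions that passed thus rested on having both WT_CTCF libraries. The difference of the group medians was -1.14 without WT_CTCF replicate 2 and -1.29 without WT_CTCF replicate 1, close to the -1.22 of all libraries. The single regions shared the direction and the rate of the whole table.

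Since the whole table shifted by -1.21 on the log2 scale, the scores were also centred on the median of each library, so that a value of 0 stands for a region that moved with the rest. On this scale 32 of the 252 (12.7%) were lower in MUT_CTCF, against 8.49% of all regions tested, and 35 (13.9%) were higher, against 10.9%. The other 185 were in neither group. The median of the 252 was 0.06, and before centring it was -1.16 with quartiles of -1.51 and -0.88. Before centring, 251 of the 252 estimates were below 0 and 1 was above.

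**Figure D2:**
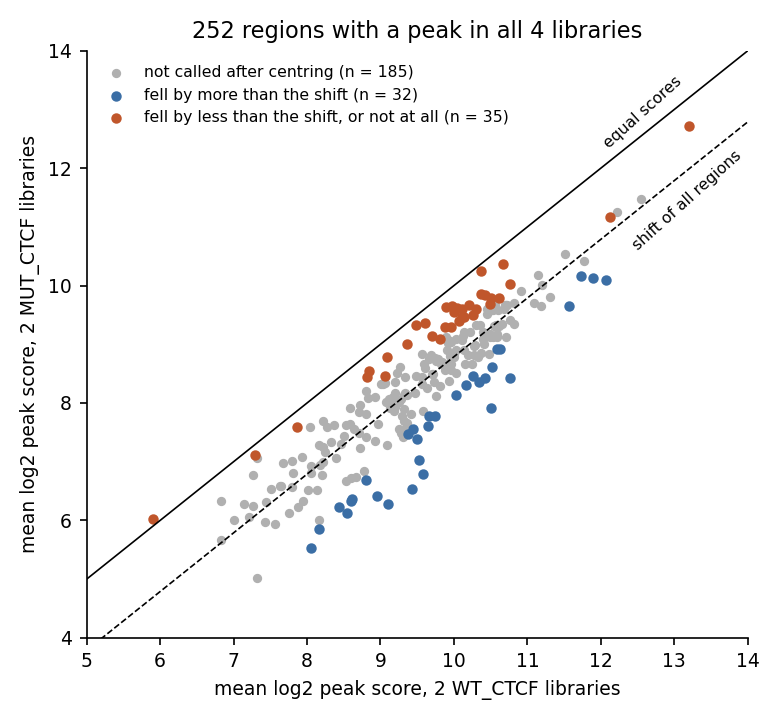
Mean log2 peak score in the 2 MUT_CTCF libraries (y axis) against that in the 2 WT_CTCF libraries (x axis), 1 point for each of the 252 regions called in all 4 libraries. The solid line marks equal scores and the dashed line the shift of all regions, -1.21. After centring, 32 regions are called below the dashed line and 35 above it, and all but 1 of the 252 estimates lie below the solid line.

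The highest WT_CTCF scores were at 4930509E16Rik, 2610005L07Rik and Gm15517. Their summits lay 1423 bp downstream, 40 bp upstream and 1372 bp downstream of the nearest non-coding start. The first and the last thus reached the window of 1000 bp only with an edge. At the lincRNA 4930509E16Rik, on chromosome 9 and 1361 bp from the nearest protein-coding start, that of Rfx7, the scores were 9558 and 9281 in WT_CTCF and 6662 and 6780 in MUT_CTCF. At 2610005L07Rik, a transcribed pseudogene in RefSeq, they were 5852 and 6174 in WT_CTCF and 3014 and 2700 in MUT_CTCF. At Gm15517, which lies in the body of the gene 2410002F23Rik and is protein-coding in RefSeq, they were 4837 and 4674 in WT_CTCF and 2242 and 2646 in MUT_CTCF. All 3 had lower scores in both MUT_CTCF libraries. Their log2 differences were -0.49 (SE 0.08), -1.08 (SE 0.10) and -0.97 (SE 0.11) in limma, the first of them well short of the shift of all regions.

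The 4 regions with the strongest fall stood at BC024582, 1190007F08Rik, Gm17585 and Gm15408. BC024582 starts inside Bach2, a gene for a transcriptional repressor of lymphocytes, and is transcribed against it. Its region (chr4:32658943-32659634) had scores of 705 and 672 in WT_CTCF and 99 and 86 in MUT_CTCF, a log2 difference of -2.90 (SE 0.26, limma adjusted p = 1.59e-05). The region of 1190007F08Rik (chr4:153400073-153400508), a lincRNA gene of the annotation that overlaps Lrrc47 on the other strand and that RefSeq now lists as the protein-coding gene Smim1, had scores of 474 and 639 in WT_CTCF and 61 and 100 in MUT_CTCF, a difference of -2.82 (SE 0.33, limma adjusted p = 4.59e-05).

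Gm17585 lies inside Vwa1, which encodes a protein of the extracellular matrix, and runs against it. Its region (chr4:155143916-155144789) had scores of 659 and 892 in WT_CTCF and 135 and 90 in MUT_CTCF, a log2 difference of -2.80 (SE 0.29, limma adjusted p = 2.58e-05). The region of Gm15408 (chr5:149818149-149818837), outside protein-coding genes and with no motif, had scores of 1487 and 1408 in WT_CTCF and 278 and 208 in MUT_CTCF, a difference of -2.59 (SE 0.20, limma adjusted p = 9.42e-06). In all 4 regions the genotypes were apart in every library. Their centred differences were -1.69, -1.61, -1.59 and -1.38. Centring moves every difference by the same amount, so their place at this end follows from how they were chosen.

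No region that passed the test was higher in MUT_CTCF, so the other end of the list holds the smallest falls. At Gm12052 (chr11:22517264-22518083) the scores were 1640 and 1626 in WT_CTCF and 1367 and 1288 in MUT_CTCF, a log2 difference of -0.30 (SE 0.13, limma adjusted p = 0.0412). At Gm11616 (chr11:102238232-102239069) they were 993 and 1113 in WT_CTCF and 835 and 737 in MUT_CTCF, a difference of -0.42 (SE 0.16, limma adjusted p = 0.0248). The third was the region over the starts of 5730588L14Rik and Snhg7, given with the snoRNA hosts. The fourth was 4930509E16Rik, which also had the highest score of all. Their centred differences were 0.91, 0.79, 0.77 and 0.72, and their place at this end likewise follows from how they were chosen.

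3 further regions, named after their values were seen, differed least of all. Gm16538, in the bodies of Fam89b and Sssca1 and transcribed against both, had scores of 1299 and 1352 in WT_CTCF and 1199 and 1232 in MUT_CTCF. Gm12602 had scores of 640 and 794 in WT_CTCF and 657 and 625 in MUT_CTCF, so that its groups overlapped. Gm13344 had weak peaks in every library, with scores of 54 and 66 in WT_CTCF and 65 in both MUT_CTCF libraries. Its log2 difference of 0.12 (SE 0.42) was the only one above 0, and its limma adjusted p was 0.781.

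Among the 71 regions called in WT_CTCF only, the highest WT_CTCF scores were at Gm16899, Gm15816 and Gm17552. Gm16899 (chr1:7388249-7388765), far from any protein-coding start, had scores of 501 and 456 and an exact motif. Gm15816 (chr8:24259965-24260410), inside Ank1, a gene for a membrane skeleton protein, and transcribed against it, had scores of 375 and 505. Gm17552 (chr19:4169379-4169796), inside Carns1, which encodes carnosine synthase, and also transcribed against it, had scores of 460 and 364. None of these 3 had a peak in either MUT_CTCF library, and all 3 were rich in G+C, at 68.7%, 64.8% and 69.4%. These scores lay below the medians of the 252 regions called everywhere.

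The place of the peaks around the starts was examined next. Averaged over the libraries with a peak, the summit lay upstream of the nearest non-coding start in 255 of the 440 regions (58.0%), and 155 regions covered the start itself. Summits were crowded just before the start. In the 200 bp upstream of it there were 100 summits (22.7%), while the 200 bp downstream held 26 (5.91%). The same was seen in each library, with 22.3% and 22.7% of the called regions just upstream in WT_CTCF and 23.2% and 23.97% in MUT_CTCF, against 5.63% and 6.75% just downstream in WT_CTCF and 4.12% in both MUT_CTCF libraries. Protein-coding promoter regions had a like distribution around their own starts, with 25.2% just upstream and 8.09% just downstream. The 200 bp window was chosen after the distribution had been seen.

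**Figure D3:**
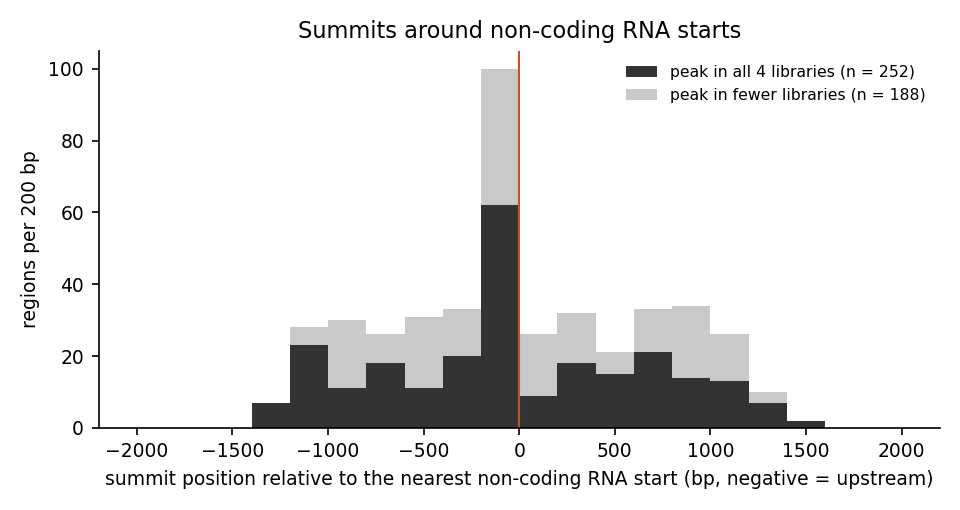
Position of the mean summit relative to the nearest non-coding RNA start in bp (x axis, negative is upstream) and number of regions in bins of 200 bp (y axis), split into regions called in all 4 libraries and in fewer. The bin just upstream of the start holds 100 regions and the one just downstream 26.

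The 100 regions just upstream were compared with the others. Of these 62 were called in all 4 libraries, against 9 of the 26 just downstream and 181 of the 314 elsewhere. The median scores of those 62 were 849 and 1002.5 in WT_CTCF and 412 and 427.5 in MUT_CTCF, against 671 and 776 and then 335 and 304 for the regions elsewhere. The 9 regions just downstream that were called in all 4 libraries had medians at least as high, 857 and 1123 in WT_CTCF and 533 and 473 in MUT_CTCF. A motif was present in 45 of the 100, and it read along the strand of the RNA in 32 and against it in 13. Elsewhere it read along in 84 and against in 94, and this difference was not tested. The median log2 score difference was -1.17 just upstream and -1.16 elsewhere.

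Summits lay at nearly the same place in both genotypes. Over the 252 regions the summit moved by a median of 8.25 bp between the genotypes and by more than 100 bp in 5 regions. The median distance from summit to start was 523.5 and 509.5 bp in WT_CTCF and 516 and 504 bp in MUT_CTCF (exact permutation test, p = 0.667). The summit lay within 1000 bp of a non-coding start in 200 and 200 of the 252 regions in WT_CTCF. In MUT_CTCF it did so in 200 and 202. Peaks were narrower, with median widths of 587 and 606.5 bp in WT_CTCF and 439.5 and 430.5 bp in MUT_CTCF, or 597 ± 13.8 against 435 ± 6.36 (SD, n = 2, exact permutation test, p = 0.333). The other regions went from 540 to 393.5 bp.

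Regions with a motif were called more widely. Of the 230 regions with a motif 73.0% were called in all 4 libraries and 10% in WT_CTCF only, while of the 210 without one 40% were called in all 4 and 22.9% in WT_CTCF only. With an exact motif 51 of 57 were called in all 4 and 2 in WT_CTCF only. With 1 mismatch it was 117 of 173, with 21 in WT_CTCF only. The other regions had shares of 61.0% and 17.6% with a motif and of 39.6% and 22.7% without. The call rate with minus without a motif was 20.1 and 0.973 percentage points in WT_CTCF and 33.2 and 34.1 in MUT_CTCF, a genotype difference of 23.1 (exact permutation test, p = 0.333). The 2 WT_CTCF libraries were far apart in this measure, and both MUT_CTCF libraries lay above them. Among regions called in all 4, the median log2 score difference was -1.18 with and -1.13 without a motif.

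Regions at non-coding RNA promoters were intermediate in base composition. Their median G+C was 48.7% against 45.6% in the other regions and 50.9% at protein-coding promoters. A region is called CpG-rich here when its G+C is over 50% and its ratio of observed to expected CpG is over 0.6, as in CpG islands, the stretches that mark many broadly active promoters. Of the 440 regions 31 (7.05%) were CpG-rich, against 22.2% at protein-coding promoters and 3.03% of all other regions.

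The CpG-rich regions had more calls that were limited to WT_CTCF. Of the 31, all were called in WT_CTCF replicate 2 and 28 in replicate 1, while each MUT_CTCF library called 16. Of the 31, 10 were called in WT_CTCF only (32.3%), against 14.9% of the 409 others. The call rate of CpG-rich minus other regions was 5.97 and 6.11 percentage points in WT_CTCF and -9.76 in both MUT_CTCF libraries, a genotype difference of -15.8 (exact permutation test, p = 0.333). The median log2 score difference was -1.58 in the 14 CpG-rich regions called in all 4 libraries and -1.12 in the 238 others. CpG-rich regions elsewhere were alike, with 34.2% called in WT_CTCF only and a median of -1.65.

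The 11 regions with the repeat string had weak peaks. WT_CTCF replicate 1 called 7 of them and replicate 2 called 6, with 2 called in both, and no MUT_CTCF library called any. The median score of those called was 37 in WT_CTCF replicate 1 and 47.5 in replicate 2, where the lowest score in each list was 13. Elsewhere 28.3% and 26.5% of the regions with the string were called in the MUT_CTCF libraries. The string was taken from the windows at Snhg15, Snhg12 and Platr4, which are among the 11 and had no peak in MUT_CTCF. The lack of MUT_CTCF calls in the 11 thus partly reflects how the string was chosen. Reads that align to several places had been removed by the authors, and the part of this step in the calls at repeats was not tested.

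**Figure D4:**
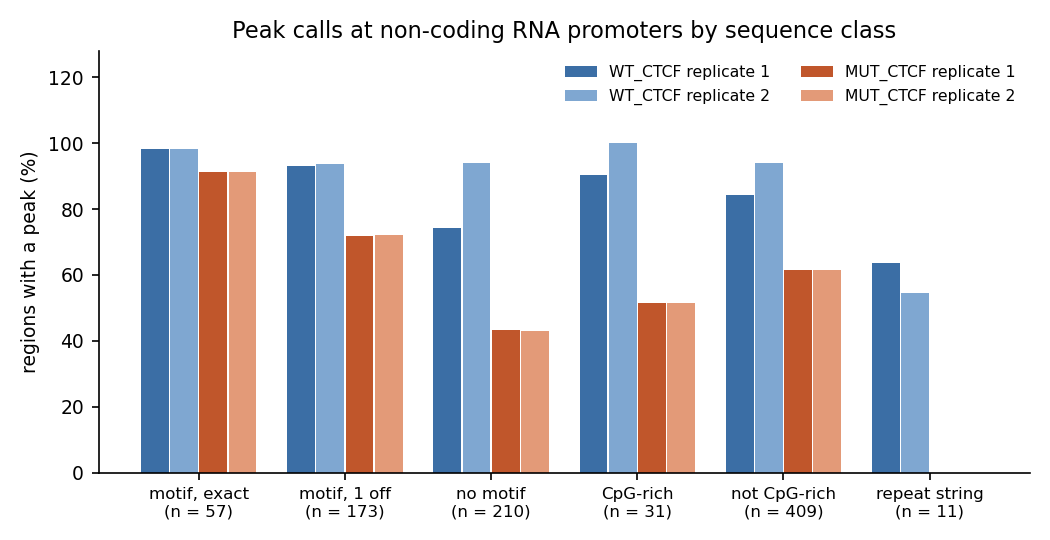
Percent of regions at non-coding RNA promoters with a peak (y axis, from 0) in each of the 4 libraries (bars), by sequence class (x axis, with the number of regions). In MUT_CTCF 91.2% of regions with an exact motif have a peak, 43.3% and 42.9% of those without a motif, 51.6% of the CpG-rich ones and 0 of the 11 with the repeat string. The string was taken from windows in some of these 11 regions, at Snhg15, Snhg12 and Platr4.

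Non-coding RNA genes known from the literature were then examined in 7 lists, whose genes are given with all their regions. Of the 5 annotated genes of the X inactivation centre and the X-linked list, 3 had a region, and these held 4 regions. Firre (6720401G13Rik), an RNA that takes part in nuclear organisation and whose locus is known for CTCF sites, had a region over its start (chrX:47988419-47988857) with scores of 189 and 273 in WT_CTCF and no peak in MUT_CTCF. Xist, the RNA that coats the inactive X chromosome, had a region with an exact motif upstream of one of its starts (chrX:100679441-100679790, summit at -965 bp). It was called in WT_CTCF replicate 2 alone, with a score of 90. Ftx (B230206F22Rik), a non-coding gene that promotes Xist expression, had 2 regions. The one at its start (chrX:100817745-100818233) was called in all libraries with scores of 203 and 273 in WT_CTCF and 86 and 66 in MUT_CTCF, a log2 difference of -1.64 (SE 0.35, limma adjusted p = 0.00125). The other had scores of 112 and 102 in WT_CTCF and no peak in MUT_CTCF. Tsix and Enox (Jpx) had no region under the rule. Of these 4 regions, 1 was called in all libraries, 2 in WT_CTCF only and 1 in a single library.

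Of 8 imprinted genes, those expressed from the allele of 1 parent, only Meg3 had regions under the rule. Meg3 is an RNA expressed from the maternal allele of the Dlk1-Dio3 domain. Its upstream region (chr12:110780114-110780671), over the start, had scores of 160 and 260 in WT_CTCF and 95 and 167 in MUT_CTCF, so the groups overlapped, and the log2 difference of -0.70 (SE 0.38) had a limma adjusted p of 0.104. Its downstream region (chr12:110780928-110781506), with a motif on the minus strand, had scores of 1195 and 1092 in WT_CTCF and 361 and 280 in MUT_CTCF, a difference of -1.85 (SE 0.19, limma adjusted p = 2.81e-05). The downstream region also had the higher scores, and its centred difference of -0.63 passed the test as well. The difference between the 2 regions was not tested. H19, Airn, Rian, Mirg, Nespas, Nctc1 and Igf2as had no region under the rule.

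Of 12 non-coding genes in the Hox clusters, only Hoxd3os1 (1700109F18Rik), on the strand opposite to Hoxd3, had a region (chr2:74553662-74554557). It covered the start, had no motif and was among the stronger peaks. The scores were 1360 and 1452 in WT_CTCF and 785 and 688 in MUT_CTCF, a log2 difference of -0.94 (SE 0.15, limma adjusted p = 0.000228). It lay 3676 bp from the nearest start of Hoxd3.

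Host genes of small nucleolar RNAs (snoRNAs), which guide the modification of ribosomal RNA, are transcribed from short promoters and carry the snoRNAs in their introns. Of 13 such genes 6 had a region, with 10 regions in all. A peak in every library was found for 5 of the 10, in WT_CTCF only for 2 and in other patterns for 3. All 5 that could be tested were lower in MUT_CTCF, where 90.8% of all regions tested were. The strongest, at Snhg17 (9430008C03Rik, chr2:158187062-158188212), had scores of 3729 and 3891 in WT_CTCF and 1142 and 1091 in MUT_CTCF, a log2 difference of -1.77 (SE 0.11, limma adjusted p = 6.62e-06). At Epb41l4aos (2410004N09Rik) the scores were 790 and 810 in WT_CTCF and 195 and 196 in MUT_CTCF, a difference of -2.03 (SE 0.21, limma adjusted p = 2.61e-05). Both fell by more than the whole table, with centred differences of -0.56 and -0.82.

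Snhg7 had 2 regions. The region over the starts of Snhg7 and its divergent neighbour 5730588L14Rik (chr2:26495567-26496255) held an exact motif. Its scores were 986 and 1063 in WT_CTCF and 737 and 769 in MUT_CTCF, a log2 difference of -0.44 (SE 0.15, limma adjusted p = 0.0171). The weaker region downstream in Snhg7 (chr2:26494605-26495072) had scores of 244 and 164 in WT_CTCF and 97 and 96 in MUT_CTCF, a difference of -1.05 (SE 0.34, limma adjusted p = 0.0138). The difference between these 2 regions was not tested.

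Snhg15 had 3 regions. The one at its upstream start (chr11:6428710-6429275) had scores of 474 and 420 in WT_CTCF and 142 and 205 in MUT_CTCF, a log2 difference of -1.39 (SE 0.27, limma adjusted p = 0.000808). The other 2 were called in WT_CTCF only, with scores of 96 and 129 in the region that holds the repeat string, and of 57 and 68 in the next. Snhg12 had a region over a later start with scores of 273 and 302 in WT_CTCF, no peak in MUT_CTCF replicate 1 and 200 in replicate 2, and a weak one with the repeat string, called in WT_CTCF replicate 1 alone with a score of 20. Gas5, which is antisense to Zbtb37, had a single peak with a score of 21 in WT_CTCF replicate 2.

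Of 10 long-studied nuclear and growth-related RNAs, Mir17hg and Malat1 had regions. Mir17hg is the precursor of a microRNA cluster that promotes proliferation. Its region (chr14:115441409-115441776) had scores of 95 and 107 in WT_CTCF, no peak in MUT_CTCF replicate 1 and 35 in replicate 2. Malat1, an abundant RNA of nuclear speckles, had 3 weak regions. One, shared with the start of Gm20417, was called in WT_CTCF only with scores of 57 and 38, and the other 2 were called in WT_CTCF replicate 2 alone with scores of 28 and 62. None of these 4 regions was called in all libraries, so none entered the test. Neat1, Miat, Tug1, Pvt1, Rmst and Dleu2 had no region under the rule.

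Platr genes are transcripts found by their association with pluripotency. Of 13 genes on this list, Platr27 (2410019O14Rik) and Platr4 had a region each. At Platr27 (chr2:157422886-157423489) the scores were 793 and 1180 in WT_CTCF and 518 and 317 in MUT_CTCF, a log2 difference of -1.26 (SE 0.26, limma adjusted p = 0.00111). That is close to the shift of all regions, with a centred difference of -0.04. Platr4 had a peak in WT_CTCF replicate 1 alone, with a score of 47.

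Of 17 genes listed as overlapping or opposite-strand partners of developmental transcription factors, 3 had regions. None of these 3 genes overlaps a protein-coding gene on the opposite strand in the annotation. Sox2ot, whose long gene contains Sox2, a core pluripotency factor, had 2 of the regions. One (chr3:34537985-34538647) had scores of 1356 and 1602 in WT_CTCF and 902 and 656 in MUT_CTCF, a log2 difference of -0.94 (SE 0.18, limma adjusted p = 0.000656), and the other (chr3:34535950-34536181), over a start, had 112 and 102 in WT_CTCF and no peak in MUT_CTCF. Foxd2os (9130206I24Rik), next to the forkhead gene Foxd2, had scores of 530 and 636 in WT_CTCF and 239 and 229 in MUT_CTCF, a difference of -1.31 (SE 0.22, limma adjusted p = 0.000343). Tbx3os2, near the T-box gene Tbx3, had scores of 956 and 818 in WT_CTCF and 409 and 458 in MUT_CTCF, a difference of -1.03 (SE 0.18, limma adjusted p = 0.000420). None of these 3 tested regions passed the test after centring. Over the 7 lists, no region was higher in MUT_CTCF, as for the 252 regions together.

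**Figure D5:**
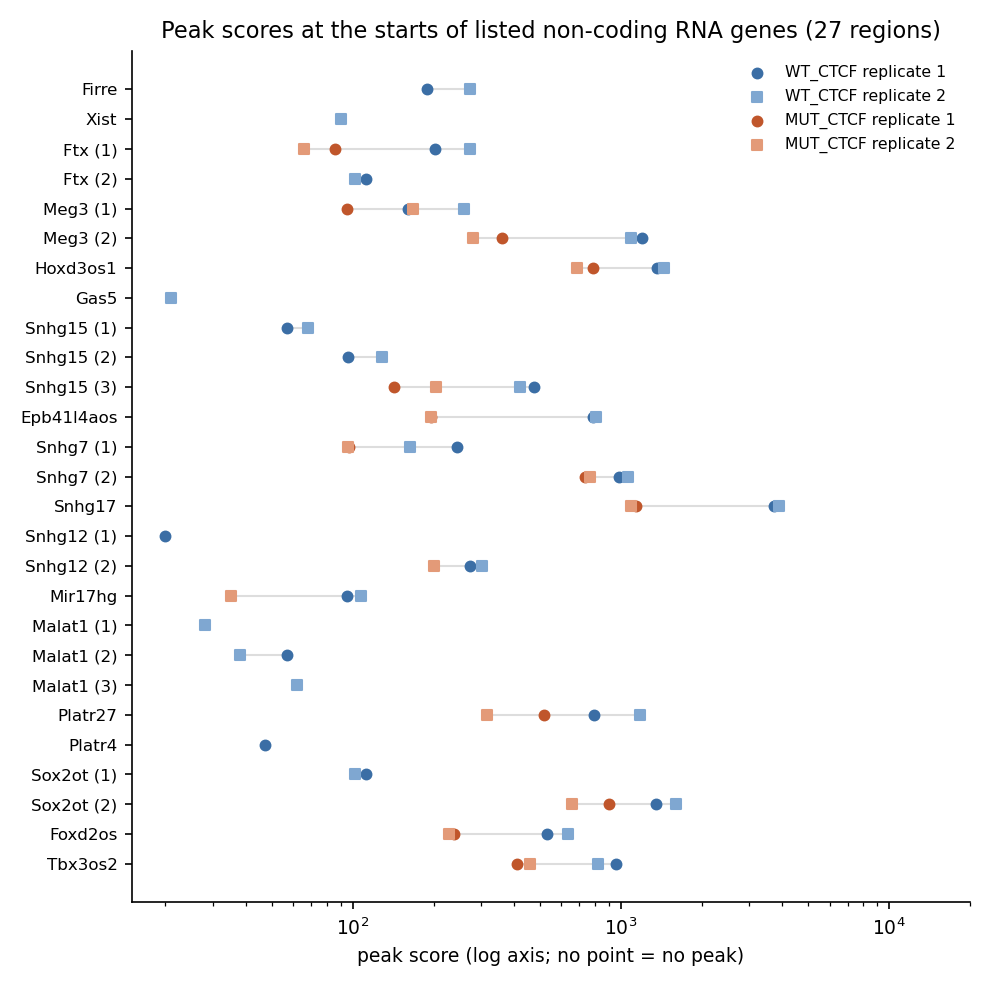
Peak score on a log axis (x) in each of the 4 libraries (points) at the 27 regions of the listed genes (y), numbered where a gene has several and with Malat1 (2) shared with Gm20417. A missing point is a missing peak. The scores run from 20 at Snhg12 to 3891 at Snhg17, and 12 of the 27 regions have no MUT_CTCF point, as have 35.9% of the 440 regions and 38.3% of all regions.

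The 440 regions were nearest to 401 genes and touched 10.4% of the 3845 genes of the types used. Of these genes 36 were nearest to 2 or more regions, and 3 genes, 1110038B12Rik, Snhg15 and Gm16706, to 3. At 1110038B12Rik, on chromosome 17, the strongest region had scores of 918 and 1180 in WT_CTCF and 250 and 317 in MUT_CTCF, the next 125 and 203 in WT_CTCF and 48 and 22 in MUT_CTCF, and the last a single score of 28 in WT_CTCF replicate 2. At Gm16706 the strongest region had scores of 295 and 351 in WT_CTCF and 156 and 167 in MUT_CTCF, and the other 2 were called in WT_CTCF replicate 2 alone with a score of 57 each. In both genes the regions called in a single library were the weakest.

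Chromosomes 11, 2 and 4 held 184 of the 440 regions (41.8%), against 22.6% of all regions and 39.6% of the annotated non-coding genes. The values lay close together for the kinds of RNA gene. LincRNA genes had 168 of the regions, with 92 called in every library, 29 called in WT_CTCF only and a median log2 score difference of -1.21. Processed transcripts had 272, of which 160 and 42 fell in these classes, with a median of -1.12. The 186 regions at genes that overlap a protein-coding gene on the other strand had 101 called in all 4 and a median of -1.12, against 151 of 254 and -1.19 at the rest. The 156 regions inside a protein-coding gene had a median of -1.07, against -1.22 for the 284 outside. No test was run on these differences. Genes were also matched to the later RefSeq annotation by name or synonym, without a check of position or strand. By this match 23 of the 440 regions are at a gene listed as protein-coding. A further 246 are at a long non-coding RNA and 12 at a pseudogene, and 158 had no match. The match can be wrong, as for 1700064E03Rik, which was matched to Kdm6b but is transcribed against it. Without the 23, 417 regions remain, of which 233 had a peak in every library, 69 in WT_CTCF only and 212 a lower score, with a median log2 score difference of -1.15.

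Regions just on either side of the limits of the rule were few, and no test was run on their differences. Among the 32 regions in the last 100 bp before the limit of 1000 bp from a non-coding start 16 were called in all 4 libraries, and among the 36 regions in the first 100 bp past it 17 were. Median scores of the first were 557.5 and 538.5 in WT_CTCF and 236 and 270 in MUT_CTCF, and of the second 637 and 706 in WT_CTCF and 205 in both MUT_CTCF libraries. The median log2 score difference was -1.06 in the first and -1.29 in the second. Of the 9 regions within the first 100 bp past the limit of 1000 bp from a protein-coding start 4 were called in all libraries, and of the 10 left out by less than 100 bp 6 were. Their median log2 score differences were -0.92 and -1.19.

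The study's table gives 1 mean scaled read count for each region over the 4 libraries. The authors' mean had a median of 138.75 at non-coding RNA promoters, with quartiles of 49.1 and 317.7, against 95 in the other regions and 131.75 at protein-coding promoters. It was 217.6 in the regions with a motif and 71.75 in those without. The highest mean, 1946.75, was at 4930509E16Rik, which also had the highest scores.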

How the data were processed

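ChIP-seq with an anti-CTCF antibody was done by the authors in 2 WT_CTCF and 2 MUT_CTCF libraries with Drosophila spike-in chromatin, which gave a scale factor for each library. Per the submitters' processing notes the tools were Trim Galore 0.4.4, Bowtie2 2.3.4.1, MACS2 2.1.1.20160309 and DESeq2 1.38.0. The authors aligned reads to mm9, removed multiply aligned and duplicate reads, and called peaks in each library on scaled coverage. The deposited lists give a peak score and a summit offset in bp, which are the units used here. The deposited table of joined regions gives a mean signal, the authors' mean of scaled counts over the 4 libraries. Its other columns, the authors' own comparison with its fold change, error, statistic and p-values, were not used. The number of unmapped columns was 0. The files give no counts per library, so the depth is unknown, and the Wilson interval covers counting error only.

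Groups and replicate numbers came from the sample titles. A region took the highest score of the peaks that overlap it by any base. Medians per library were compared with exact permutation tests of 2 against 2, and log2 scores with limma 3.58.1 (trend on the mean score, R 4.3.3), with Benjamini-Hochberg adjustment over 30317 regions. Only regions called in all 4 libraries could be tested, which leaves out the 188 others. Motifs were read from the NCBIM37 (mm9) genome, and gene symbols newer than GENCODE vM1 from RefSeq GRCm38.p6, which matched 282 of the 440 regions. The scripts ran under Python 3.11.15 with scipy 1.17.1, pandas 2.3.3, matplotlib 3.10.9 and numpy 2.4.6. Whether replicate numbers pair the libraries was checked by the correlation of the replicate differences over regions, which was -0.0033 with 2 pairs, and they were not taken as pairs.

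The regions, gene lists, tests and alternatives were chosen with earlier results of these data known. Named were all regions at listed genes, the 3 with the highest WT_CTCF score, the 4 with the strongest and the 4 with the weakest fall among those that passed the test, the 3 highest in WT_CTCF only and any in MUT_CTCF only. Sequences of chromosome 18 were not printed. Alternatives were a stricter score, other overlaps and distances, other summaries of the score, a replicate block and leaving out each library.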

Additional observations from a re-analysis of the deposited data

How the results depend on the processing

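Over 11 results, 108 alternatives were run, and 88 kept their direction and side of the threshold or, for counts, stayed within 1.5 times. The exact permutation tests cannot go below p = 0.333, so their side of the threshold was fixed in advance and only the direction could change. An overlap of at least 50% gave the main values again, and a replicate block leaves differences of medians as they are. The 88 is therefore no measure of how robust the results are. The called share compared with other regions, 3.84 percentage points, was 1.53 with stricter scores, 6.18 within 500 bp and 7.77 against protein-coding promoters. The number of regions called in WT_CTCF only was 71, and it was 45 for starts within 500 bp, 158 when a call in at least 1 replicate was enough, and 84 to 136 when a library was left out. In MUT_CTCF only it was 0, 1 when a call in at least 1 replicate was enough, and 0 to 1 with a library left out. The 231 regions with a lower score became 32 with scores centred on each library, 143 with only scores of at least the pooled median, where fewer regions were tested, and 0 to 193 with a library left out. The 0 with a higher score became 35 with centred scores. The genotype difference in the gap between these and other regions, near 0 at -0.0050, was 0.0126 with stricter scores, 0.0200 within 500 bp, 0.0093 over 5000 bp from protein-coding starts, 0.149 against protein-coding promoters, and -0.0260 to 0.0279 with a library left out. The difference in summit distance, -6.5 bp, was 5 with stricter scores, 4 over 5000 bp from protein-coding starts, and -15 to 0.5 with a library left out. The motif share of 52.3% was 12.95% without a mismatch. With a replicate block, limma found 233 lower scores in place of 231, and 27742 of all 30317 regions passed in either direction. The exact paired permutation test of medians cannot go below p = 0.5. Where a library was left out, the lone library of its group was assumed to vary like the others. The causes were not tested. The spread between 2 libraries, unknown depth and the undefined score limit all results.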
